A study of Mus musculus with 119 samples.

Results

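Ier2, Ier3 and Ier5 are 3 of the 18098 genes measured in mouse bone marrow-derived macrophages (BMDMs), and they were chosen by symbol because they carry the name immediate early response gene. The choice was made with earlier results of these data known. All 3 passed the filter on low values, so all 3 were tested, as 3 of 11971 tested genes. Ier2 rose at 0.5 h of LPS and was 0.43 above its unstimulated level by 2 h, Ier3 rose at 0.5 h and remained high, and Ier5 rose at 0.5 and 1 h by a smaller difference. After LPS, Ier2 was lower than in WT BMDMs in every genotype tested and with PD0325901. With RSKi47 the Ier2 libraries overlapped those of WT at all 3 times, with a lower mean at 2 h by -0.43, and Ier3 was lower at all 3 times. When the rise from libraries without LPS was set against that of WT, only Ier3 at 2 h differed with RSKi47.

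The study used RNA sequencing to ask which early LPS-induced genes depend on the kinase TPL-2, on its release from p105, on MKK1/2 and RSK, and on the transcription factors Elk1 and Elk4. BMDMs on a C57BL/6(NIMR) background were cultured for 7 days, replated overnight in low serum and stimulated with 100 ng/ml LPS in 25 groups of libraries. WT BMDMs were left unstimulated or received LPS for 0.5 or 1 h (n = 6 each) or for 2 h (n = 4). BMDMs with the genotype Map3k8[D270A], a point mutation that leaves TPL-2 without catalytic activity, had 6 libraries each at 0, 0.5, 1 and 2 h. Nfkb1[SS/AA] BMDMs, in which p105 lacks the serines that are phosphorylated to free TPL-2, had 6 libraries each at 0, 0.5 and 1 h. Elk1-/-Elk4-/- BMDMs had 4 libraries each at 0, 0.5, 1 and 2 h. The inhibitor groups were WT BMDMs. The MKK1/2 inhibitor PD0325901 at 0.1 µM was given for 10, 40 or 70 min without LPS (n = 3 each) or for 10 min before LPS for 0.5 or 1 h (n = 6 each), and DMSO for 10 min was the vehicle group (n = 3). The RSK inhibitor RSKi47 at 2 µM was given for 10 min without LPS (n = 4), or before LPS for 0.5 h (n = 3), 1 h (n = 4) or 2 h (n = 4). No DMSO with LPS group was among the libraries, so the LPS-stimulated WT libraries served as the control for every arm. The labels place those WT libraries in the same experiment as the Map3k8[D270A] libraries, and each of the other arms in an experiment of its own, so for the other arms the genotype or inhibitor and the experiment cannot be told apart. No vehicle is labelled for the WT libraries.

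Immediate early genes are transcribed within minutes of a stimulus without new protein synthesis, and many are targets of ERK1/2 signalling and of NF-kB in macrophages that sense LPS through TLR4. IER2 and IER5 are related nuclear proteins that share a conserved N-terminal region with IER5L. IER5 is known as a partner of the phosphatase PP2A and as a promoter of HSF1 activity, and IER3, also called IEX-1, is unrelated in sequence and is known for roles in cell survival and in the regulation of ERK1/2 and NF-kB. TPL-2, encoded by Map3k8, phosphorylates MKK1/2, which activate ERK1/2; Elk1 and Elk4 are ERK substrates that bind DNA with SRF, and RSK is a kinase downstream of ERK1/2.

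The macrophage label was checked first. All 12 macrophage markers were detected, with a summed level of 18.8 to 19.6 on the log2 scale in every library, while Ly6g and Cd3e, which define neutrophils and T cells, were below a linear value of 10 in all libraries. Other markers on these lists were not at this floor: the 10 of 10 neutrophil markers in the data summed to 6.23 to 11.05, with S100a9 at 4.34 to 9.75 and Ngp at 3.53 to 9.10, the 7 of 8 T and NK cell markers to 7.36 to 8.60, with Cd4 at 7.30 to 8.57, and the 10 of 10 stromal and glial markers to 5.13 to 9.46. The neutrophil sum differed by arm, at 10.05 to 11.05 in the Elk1-/-Elk4-/- libraries against 6.33 to 7.78 in WT. The highest stromal and glial sum was in a library with RSKi47 for 10 min. The B cell marker Cd79b was 4.91 to 6.91. The part of these markers in the results, including those of the Elk1-/-Elk4-/- arm, was not tested. Elk1 was 6.17 to 6.59 in the 16 Elk1-/-Elk4-/- libraries and 8.55 to 9.49 in the other 103, and Elk4 was 5.51 to 5.88 against 6.88 to 8.56. The point mutations in Map3k8 and Nfkb1 cannot be checked from gene levels. The libraries farthest from their group means were Nfkb1[SS/AA] replicate 2 at 1 h and RSKi47 replicate 4 at 2 h. The values are the deposited normalised levels on a log2 scale. The transformation is not named, and differences between libraries may be drawn together by it, so differences are given in units of the deposited log2 values and are not converted into folds. In bulk samples, fewer cells with a transcript and less transcript per cell cannot be told apart.

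The 3 genes lie on different chromosomes. In the GENCODE annotation of GRCm38, Ier2 is a single-exon gene at chr8:84661331-84662852 on the minus strand, Ier3 has 2 exons at chr17:35821684-35822923 on the plus strand, and Ier5 is a single-exon gene at chr1:155096361-155099636 on the minus strand. None of them overlaps another annotated gene. The 250 bases before the RefSeq start are shown for Ier3 and Ier5, the members with an entry in the promoter table used, because both genes rose together with LPS and differed under the inhibitors. The Ier3 window is chr17:35821463-35821712 on the plus strand and the Ier5 window is chr1:155099637-155099886 on the minus strand, both from RefSeq on GRCm38.p6 and written 5′ to 3′ along the gene. Capitals mark a GC box (GGGCGG on either strand) and, in Ier3, the NF-kB site that overlaps it.
Ier3: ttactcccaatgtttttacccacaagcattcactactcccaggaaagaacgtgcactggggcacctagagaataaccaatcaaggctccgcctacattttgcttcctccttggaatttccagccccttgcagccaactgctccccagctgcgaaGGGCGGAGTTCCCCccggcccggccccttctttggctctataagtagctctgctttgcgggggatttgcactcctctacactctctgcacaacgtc
Ier5: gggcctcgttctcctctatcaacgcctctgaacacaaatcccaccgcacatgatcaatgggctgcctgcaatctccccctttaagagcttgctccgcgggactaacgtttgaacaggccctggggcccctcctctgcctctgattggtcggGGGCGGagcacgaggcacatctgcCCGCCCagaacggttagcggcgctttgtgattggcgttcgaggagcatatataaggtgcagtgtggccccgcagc
The windows searched ran from 250 bases before to 50 bases after the start, on both strands. In Ier3 the GC box lies at -96 to -91 and shares 2 bases with the NF-kB site at -92 to -83, whose letters on the gene's strand are GGAGTTCCCC. NF-kB sites of this form are found in 4.51% of the 32851 promoters of the same length in the table, and GC boxes in 35.7%. In Ier5 there are 2 GC boxes, at -99 to -94 and, on the other strand, at -75 to -70. The ETS core GGAA, which 96.0% of all promoters hold, was found at 5 places in Ier3, of which 1 lies within the NF-kB site, and at 1 place in Ier5. Neither window held the letters of a CArG box (1.63% of promoters), CCGGAAGT (3.89%), TGACG (20.8%), TGANTCA (7.81%), TATAAA (13.6%), GAANNTTC (7.86%) or TTCNNGAA (8.52%). These matches describe letters in a window, not bound sites.

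**Figure D1:**
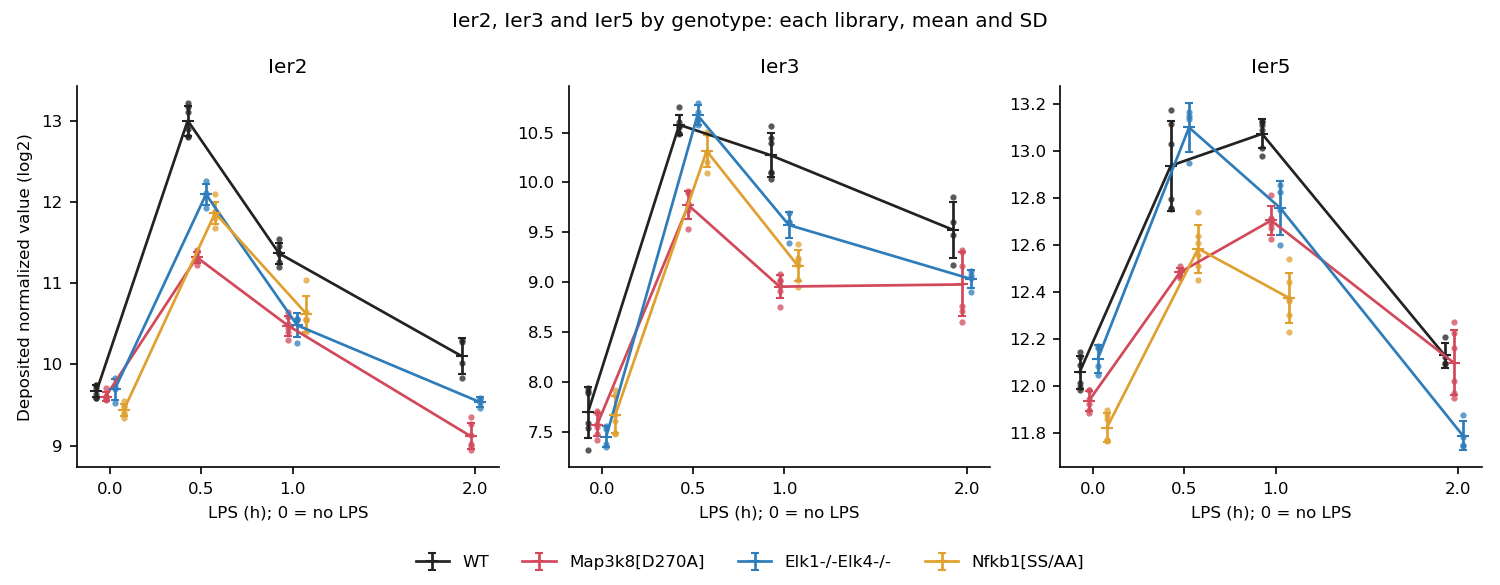
Deposited log2 level (vertical axis) of Ier2, Ier3 and Ier5 in every library of the WT, Map3k8[D270A], Nfkb1[SS/AA] and Elk1-/-Elk4-/- arms against hours of LPS (horizontal axis, 0 for no LPS), with lines through the group means and bars for the SD. The 6 WT libraries at 0.5 h reach 12.81 to 13.22 for Ier2, and those of the 3 mutant arms lie below them.

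The first comparison asked how the 3 genes respond to LPS in WT BMDMs. Ier2 was 9.58 to 9.75 (median 9.67) in the 6 unstimulated libraries, 12.81 to 13.22 (median 13.00) at 0.5 h, 11.20 to 11.55 (median 11.37) at 1 h, and 10.02, 10.27, 10.30 and 9.83 in the 4 libraries at 2 h. All LPS-stimulated WT libraries lay above all unstimulated ones, and the 4 groups of Ier2 values did not overlap at any pair of times. All libraries with LPS were above all unstimulated ones in 5.66%, 15.3% and 29.1% of tested genes at 0.5, 1 and 2 h. The difference from unstimulated WT was 3.33 ± 0.08 (SE) at 0.5 h, 1.70 ± 0.08 at 1 h and 0.43 ± 0.09 at 2 h (limma, adjusted p = 8.13e-61, 5.19e-37 and 7.19e-06). At 0.5 h all 3 members were called, where 12% of all tested genes were called in either direction and 8.19% were higher.

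Ier3 was 7.32 to 7.93 (median 7.74) in unstimulated WT BMDMs, 10.48 to 10.76 (median 10.56) at 0.5 h, 10.03 to 10.57 (median 10.25) at 1 h, and 9.47, 9.60, 9.85 and 9.17 at 2 h. Every stimulated library was above every unstimulated one, and the 0.5 and 1 h libraries overlapped. The rise was 2.88 ± 0.09 at 0.5 h, 2.58 ± 0.09 at 1 h and 1.83 ± 0.11 at 2 h (limma, adjusted p = 9.02e-49, 2.19e-45 and 2.03e-30). Ier3 was therefore lower at 1 h than at 0.5 h by a small difference of -0.30 (limma, adjusted p = 0.00539), against -1.63 for Ier2 over the same interval, in which 41% of all tested genes were called. The Ier3 call was lost without WT replicate 7 (-0.23, adjusted p = 0.0544).

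Ier5 was 11.98 to 12.15 (median 12.05) in unstimulated WT BMDMs, 12.75 to 13.18 (median 12.91) at 0.5 h, 12.98 to 13.13 (median 13.10) at 1 h, and 12.12, 12.10, 12.10 and 12.21 at 2 h. The 0.5 and 1 h libraries were above all unstimulated ones, and the 2 h libraries overlapped them. The rise was 0.88 ± 0.05 at 0.5 h and 1.01 ± 0.05 at 1 h (limma, adjusted p = 6.06e-30 and 1.64e-35), and at 2 h the difference was 0.07 ± 0.06 (adjusted p = 0.232). At 1 h, 47.7% of all tested genes were called, and at 2 h 72%, so a call at 2 h is shared with most genes. With quantile normalization the Ier5 difference at 2 h turned to -0.33 and was called. Within WT, the rises differed between the genes: at 0.5 h Ier2 rose by 0.45 ± 0.11 more than Ier3 and by 2.46 ± 0.06 more than Ier5, whereas at 1 h Ier2 rose by less than Ier3, with a difference of -0.88 ± 0.11 (limma model of the within-library difference, adjusted p = 0.000266, 8.6e-60 and 3.78e-11 over 48 such tests).

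The WT replicate numbers 4 to 6 and 7 to 9 stood apart for some of these values. At 0.5 h Ier2 was 12.81 to 12.90 in replicates 4 to 6 and 13.11 to 13.22 in replicates 7 to 9, and unstimulated Ier3 was 7.89 to 7.93 in the first set and 7.32 to 7.58 in the second. Ier5 at 0.5 h likewise was 12.75 to 12.80 in replicates 4 to 6 and 13.03 to 13.18 in replicates 7 to 9. Ier3 at 1 h was 10.40 to 10.57 in the first set and 10.03 to 10.10 in the second. Map3k8[D270A] replicates 1 to 3 and 4 to 6 also stood apart at 2 h, for Ier3 at 9.16 to 9.32 and 8.60 to 8.76. The labels do not say what separates these numbers, and the differences of Map3k8[D270A] from WT at the same time are therefore given within sets too.

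Ordered by the group mean over all 25 groups, Ier2 was highest with RSKi47 and LPS for 0.5 h (mean 13.05), followed by WT at 0.5 h (13.00), Elk1-/-Elk4-/- at 0.5 h (12.09) and Nfkb1[SS/AA] at 0.5 h (11.87), and it was lowest in Map3k8[D270A] at 2 h (9.12). Of the 24 neighbouring pairs in that order, the library ranges of 3 did not overlap: WT and Elk1-/-Elk4-/- at 0.5 h, Nfkb1[SS/AA] and PD0325901 at 0.5 h, and Map3k8[D270A] at 0.5 h and Nfkb1[SS/AA] at 1 h. Ier3 was highest in Elk1-/-Elk4-/- at 0.5 h (10.67) and WT at 0.5 h (10.58) and lowest with PD0325901 for 40 min without LPS (7.29). Its 9 groups without LPS took the last 9 places, and the lowest LPS group, RSKi47 at 2 h (8.30), was apart from them by a gap of 0.60 between the means. Ier5 was highest in Elk1-/-Elk4-/- at 0.5 h (13.10) and WT at 1 h (13.07), and lowest in Elk1-/-Elk4-/- at 2 h (11.79). No neighbouring pair of Ier5 groups was free of overlap.

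The next comparison asked how far the genes depend on the catalytic activity of TPL-2. Unstimulated Map3k8[D270A] BMDMs had Ier2 at 9.56 to 9.71 (median 9.59), Ier3 at 7.42 to 7.71 (median 7.56) and Ier5 at 11.89 to 11.98 (median 11.93). None of the 3 differences from unstimulated WT was called, at -0.07 for Ier2, -0.13 for Ier3 and -0.12 for Ier5 (limma, adjusted p = 0.82, 0.63 and 0.218), although the Ier5 ranges did not overlap, as in 1.55% of genes. Within the first set of replicate numbers, WT 4 to 6 with mutant 1 to 3, the Ier3 difference was -0.30 and was called (adjusted p = 0.0326), against 0.05 in the second set (adjusted p = 0.897). It was also called with library weights (-0.24, adjusted p = 0.02). In all, 3 of the 9 alternatives called the Ier3 difference, with values down to -0.31 and a limma adjusted p down to 0.00749. Within the sets Ier2 differed by -0.05 and -0.08 and Ier5 by -0.07 and -0.18, none of them called. Here 1.71% of all tested genes were called in either direction.

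After LPS, Ier2 in Map3k8[D270A] BMDMs was 11.22 to 11.41 (median 11.31) at 0.5 h, 10.30 to 10.64 (median 10.47) at 1 h and 8.95 to 9.35 (median 9.07) at 2 h. At each of these times every mutant library was below every WT library, and at 2 h every mutant library was also below every unstimulated mutant library, as in 7.63% of tested genes against WT and 22.8% against unstimulated. The difference from WT was -1.68 ± 0.08 at 0.5 h, -0.89 ± 0.08 at 1 h and -0.99 ± 0.09 at 2 h (limma, adjusted p = 1.14e-34, 1.19e-16 and 6.85e-17). Within the sets of replicate numbers (WT 4 to 6 with mutant 1 to 3, and WT 7 to 9 with mutant 4 to 6), the 0.5 h difference was -1.56 and -1.81 and the 1 h difference -0.87 and -0.91. The 2 h difference was -1.21 and -0.58, the second against a single WT library.

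Ier3 in Map3k8[D270A] BMDMs was 9.54 to 9.92 (median 9.78) at 0.5 h, 8.74 to 9.08 (median 8.99) at 1 h and 8.60 to 9.32 (median 8.96) at 2 h. It was below all WT libraries at 0.5 and 1 h and overlapped them at 2 h. The difference from WT was -0.81 ± 0.09, -1.32 ± 0.09 and -0.55 ± 0.11 at the 3 times (limma, adjusted p = 9.54e-11, 8.6e-22 and 1.55e-05). In both sets of replicate numbers the 1 h difference was the larger one, at -1.43 and -1.20, against -0.71 and -0.905 at 0.5 h and -0.38 and -0.48 at 2 h. Over all alternatives run, the 2 h difference of Ier3 ranged from -0.64 to -0.33.

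Ier5 in Map3k8[D270A] BMDMs was 12.46 to 12.51 (median 12.49) at 0.5 h, 12.63 to 12.81 (median 12.70) at 1 h and 11.95 to 12.27 (median 12.09) at 2 h. The mutant libraries were below all WT libraries at 0.5 and 1 h and on both sides of them at 2 h. The difference was -0.45 ± 0.05 and -0.37 ± 0.05 at 0.5 and 1 h (limma, adjusted p = 5.1e-12 and 4.18e-09) and -0.03 ± 0.06 at 2 h (adjusted p = 0.72, 95% interval -0.14 to 0.08). Within the 2 sets it was -0.30 and -0.61 at 0.5 h and -0.35 and -0.39 at 1 h. At 2 h the Ier5 call depended on the setting: with library weights the difference was -0.12 and was called, and within the first set of replicate numbers it was -0.13 and was called, against 0.01 in the second set.

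All 3 members were called lower at 0.5 h, where 1.11% of tested genes were, and at 1 h, where 4.8% were, and in 0.977% and 2.46% of genes all mutant libraries were below all WT ones. At 2 h, 2 of the 3 were called lower, with 13.6% of tested genes lower. The genes were not lower by the same amount. At 0.5 h the Ier2 difference exceeded that of Ier3 by -0.88 ± 0.11 and that of Ier5 by -1.23 ± 0.06, and at 1 h Ier3 had the larger difference, with Ier2 minus Ier3 at 0.43 ± 0.11 (limma, adjusted p = 3.78e-11, 2.29e-34 and 0.000513 over the 48 tests).

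Nfkb1[SS/AA] BMDMs were compared with the same WT libraries to ask whether the release of TPL-2 from p105 matters for the genes. Unstimulated, Ier2 was 9.34 to 9.54 (median 9.44) and Ier5 11.77 to 11.90 (median 11.82), both below all unstimulated WT libraries, as 6.25% of tested genes were, and Ier3 was 7.47 to 7.91 (median 7.64), within the WT range. The differences were -0.23 ± 0.08 for Ier2 and -0.24 ± 0.05 for Ier5 (limma, adjusted p = 0.0191 and 7.7e-05) and -0.03 for Ier3 (adjusted p = 0.87). With only the compared arms in the fit, the Ier2 call was lost (adjusted p = 0.0507). In this comparison 32% of all tested genes were called.

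With LPS, Ier2 was 11.68 to 12.10 (median 11.86) at 0.5 h and 10.40 to 11.04 (median 10.56) at 1 h in Nfkb1[SS/AA] BMDMs, below all WT libraries at both times. Ier3 was 10.09 to 10.50 (median 10.30) at 0.5 h, which overlapped WT, and 8.95 to 9.38 (median 9.20) at 1 h, which did not. Ier5 was 12.45 to 12.74 (median 12.59) at 0.5 h and 12.23 to 12.54 (median 12.37) at 1 h, again below all WT libraries, as 6.38% and 6.19% of tested genes were. Ier2 was therefore lower at both times, Ier3 mainly at 1 h, and Ier5 at both with the wider gap at 1 h.

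The Ier2 difference from WT was -1.14 ± 0.08 at 0.5 h and -0.75 ± 0.08 at 1 h (limma, adjusted p = 6.71e-23 and 1.24e-13). For Ier3 it was -0.26 ± 0.09 at 0.5 h and -1.11 ± 0.09 at 1 h (adjusted p = 0.0237 and 2.54e-18), and for Ier5 -0.35 ± 0.05 and -0.70 ± 0.05 (adjusted p = 6.7e-09 and 6.61e-23). All 3 members were called lower at both times, where 15.6% and 21.9% of all tested genes were lower. The Ier3 call at 0.5 h was lost when only the compared arms entered the fit (adjusted p = 0.0756), and it was lost without Nfkb1[SS/AA] replicate 2 or 3 or without WT replicate 7 (-0.22, -0.24 and -0.23). With the block on the number in the titles, which WT and Nfkb1[SS/AA] libraries share only as a number, it was -0.45 and called (adjusted p = 3.91e-05).

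**Figure D2:**
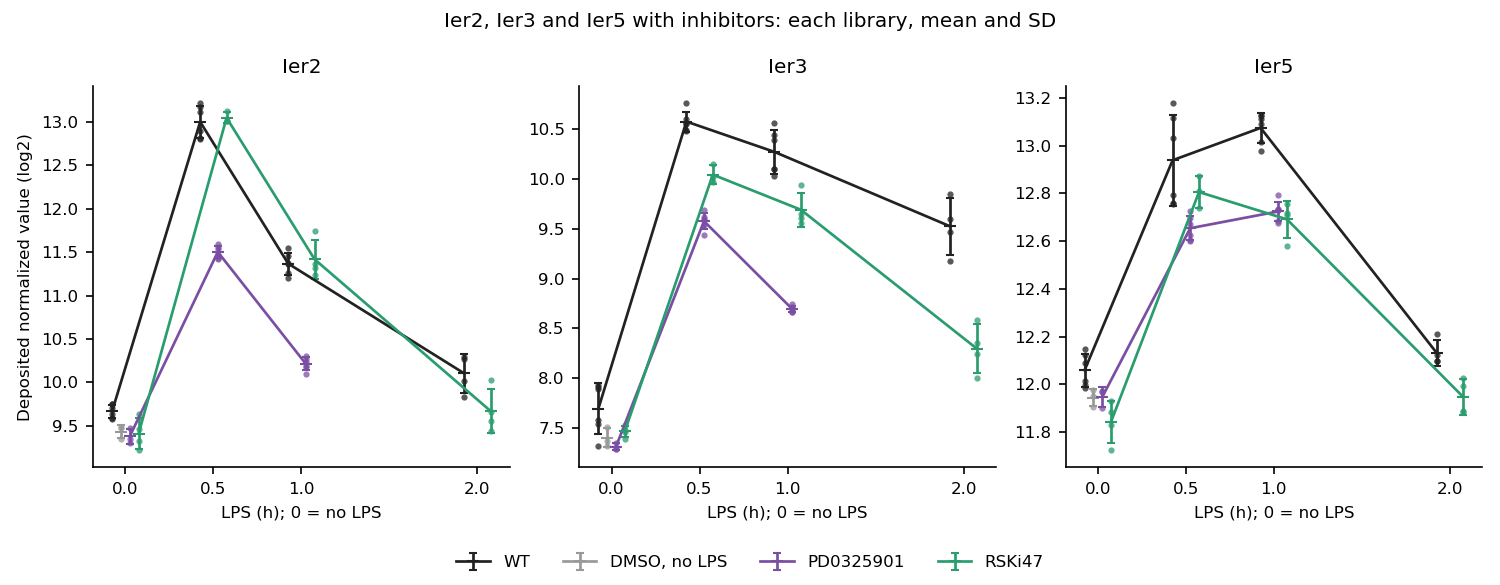
Deposited log2 level (vertical axis) of Ier2, Ier3 and Ier5 in the libraries of the WT, DMSO, PD0325901 and RSKi47 arms against hours of LPS (horizontal axis, 0 for unstimulated WT and for 10 min of DMSO or inhibitor without LPS), with lines through the group means and bars for the SD. With LPS for 0.5 h, the 6 PD0325901 libraries of Ier2 sit at 11.42 to 11.59 and the 3 RSKi47 libraries at 13.01 to 13.12, inside the WT range.

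The inhibitor groups asked which of the steps below TPL-2 the genes depend on. Without LPS, 10 min of PD0325901 gave Ier2 at 9.48, 9.35 and 9.30, against 9.48, 9.47 and 9.34 with DMSO. Ier3 was 7.35, 7.29 and 7.29 with PD0325901 and 7.51, 7.37 and 7.32 with DMSO, and Ier5 was 11.97, 11.97 and 11.90 against 11.91, 11.98 and 11.95. The groups overlapped for each gene. The difference was -0.05 for Ier2 (95% interval -0.28 to 0.17), -0.09 for Ier3 (-0.35 to 0.18) and 0.00 for Ier5 (-0.14 to 0.14), with a limma adjusted p of 1 for each. In this comparison limma called 0 of all tested genes (0%), with 245 at an unadjusted p under 0.05, and limma-trend also called 0.

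Ier5 was higher after longer PD0325901 without LPS than after 10 min. It was 12.16, 12.24 and 12.16 at 40 min and 12.23, 12.17 and 12.17 at 70 min, above all 10 min libraries (as in 13.3% and 16.2% of tested genes), by 0.24 ± 0.07 at each time (limma, adjusted p = 0.0321 and 0.0188). These calls were each lost when any 1 PD0325901 replicate was left out. No DMSO library was labelled for 40 or 70 min, so longer inhibitor and longer time cannot be told apart here. Ier2 was 9.46, 9.55 and 9.37 at 40 min and 9.74, 9.65 and 9.51 at 70 min, and Ier3 was 7.21, 7.31 and 7.36 and then 7.49, 7.26 and 7.44. Neither gene was called, at 0.09 and 0.25 for Ier2 (adjusted p = 0.825 and 0.193, the second called with library weights at 0.27 and with only the compared arms) and -0.02 and 0.08 for Ier3 (adjusted p = 0.982 and 0.836), beside 3.58% and 6.09% of genes called at the 2 times.

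With LPS, PD0325901 gave Ier2 at 11.42 to 11.59 (median 11.50) at 0.5 h and 10.10 to 10.31 (median 10.21) at 1 h. Ier3 was 9.44 to 9.69 (median 9.59) and 8.66 to 8.75 (median 8.69), and Ier5 was 12.60 to 12.72 (median 12.65) and 12.68 to 12.79 (median 12.73). For all 3 genes and both times, every PD0325901 library was below every WT library, as in 8.11% of tested genes at 0.5 h and 9.59% at 1 h. The difference from WT with LPS was -1.50 ± 0.08 and -1.16 ± 0.08 for Ier2 (limma, adjusted p = 1.04e-30 and 3.78e-23), and -0.28 ± 0.05 and -0.35 ± 0.05 for Ier5 (2.9e-06 and 8.2e-09). Ier3 decreased by 1.00 ± 0.09 at 0.5 h and by 1.58 ± 0.09 at 1 h (adjusted p = 2.63e-15 and 9.29e-27). All 3 members were called lower where 15% of tested genes were at 0.5 h and 19.3% at 1 h.

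RSKi47 for 10 min without LPS gave Ier2 at 9.63, 9.32, 9.46 and 9.22, Ier3 at 7.46, 7.39, 7.48 and 7.53, and Ier5 at 11.88, 11.83, 11.93 and 11.73. Against unstimulated WT, which had no inhibitor or vehicle, Ier2 differed by -0.26 ± 0.09 and Ier5 by -0.22 ± 0.06 (limma, adjusted p = 0.00934 and 0.000555), and Ier3 by -0.23 (adjusted p = 0.059). The Ier2 call was lost without RSKi47 replicate 4 (-0.20), and Ier3 was called without WT replicate 7, 8 or 9 (-0.25, -0.30 and -0.26) and with library weights (-0.38, adjusted p = 2.27e-05). With a block on the number in the titles, which libraries of these arms only share as a number, it was -0.42 and called. In this comparison 53% of all tested genes were called, and the DMSO libraries differed from unstimulated WT by -0.24 for Ier2, -0.29 for Ier3 and -0.11 for Ier5 (adjusted p = 0.0632, 0.0517 and 0.16), where 23.6% of genes were called. The DMSO difference of Ier3 was called with library weights (-0.43), median centring (-0.31), quantile normalization (-0.29), the block on the number (-0.52) and without WT replicate 7, 8 or 9 (-0.32, -0.37 and -0.33). That of Ier2 was called with library weights and quantile normalization (-0.27 each), and that of Ier5 with quantile normalization (-0.17).

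With LPS and RSKi47, Ier2 was 13.01, 13.02 and 13.12 at 0.5 h, 11.74, 11.37, 11.32 and 11.24 at 1 h, and 9.44, 9.65, 9.55 and 10.03 at 2 h. These libraries overlapped WT at each time and were lower on average at 2 h. The difference was 0.05 ± 0.10 at 0.5 h (95% interval -0.15 to 0.24), 0.05 ± 0.09 at 1 h (-0.13 to 0.22) and -0.43 ± 0.10 at 2 h (limma, adjusted p = 0.716, 0.658 and 8.3e-05).

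Ier3 with RSKi47 was 10.15, 9.97 and 10.02 at 0.5 h, 9.94, 9.56, 9.65 and 9.61 at 1 h, and 8.35, 8.59, 8.24 and 8.001 at 2 h, below all WT libraries at each time, as 21.3%, 16.2% and 19.1% of tested genes were. The difference was -0.53 ± 0.12, -0.58 ± 0.11 and -1.23 ± 0.12 (limma, adjusted p = 6.94e-05, 2e-06 and 3.85e-16). Ier3 was thus the one member called lower with RSKi47 at all 3 times, and at 0.5 h it differed from Ier2, whose difference minus that of Ier3 was 0.58 ± 0.14 (adjusted p = 0.000132 over the 48 tests).

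Ier5 with RSKi47 was 12.74, 12.81 and 12.87 at 0.5 h, 12.76, 12.71, 12.72 and 12.58 at 1 h, and 11.89, 11.88, 11.99 and 12.03 at 2 h. It overlapped WT at 0.5 h and was below all WT libraries at 1 and 2 h. The difference was -0.13 ± 0.06, -0.38 ± 0.06 and -0.18 ± 0.06 (limma, adjusted p = 0.0595, 5.38e-09 and 0.00727). The calls of Ier5 at 0.5 and 2 h moved with quantile normalization, to -0.19, called, and -0.12, not called, and with library weights the 0.5 h difference was -0.02 (adjusted p = 0.729). Of the 3 members, 1 was called lower at 0.5 h, 2 at 1 h and 3 at 2 h, where 24.5%, 26.3% and 24.6% of all tested genes were lower, so the counts of members alone do not set these genes apart from the rest.

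Elk1-/-Elk4-/- BMDMs addressed the part of the TCF factors. Unstimulated, Ier2 was 9.70, 9.83, 9.72 and 9.52, Ier3 7.52, 7.55, 7.38 and 7.34, and Ier5 12.16, 12.09, 12.17 and 12.05, and all 3 overlapped WT. The difference was 0.02 for Ier2 and 0.06 for Ier5 (limma, adjusted p = 0.844 and 0.386) and -0.24 ± 0.11 for Ier3 (adjusted p = 0.043). The Ier3 call was lost without Elk1-/-Elk4-/- replicate 3 or 4 (-0.22 and -0.21) or WT replicate 4, 5 or 6 (-0.205, -0.202 and -0.197), without the filter and with only the compared arms. With the block on the number in the titles it was -0.44 and called (adjusted p = 0.00015). With library weights it was -0.34 and called (adjusted p = 6.84e-05). In this comparison 53.6% of all tested genes were called.

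After LPS, Ier2 in Elk1-/-Elk4-/- BMDMs was 12.11, 12.25, 12.09 and 11.93 at 0.5 h, 10.56, 10.54, 10.56 and 10.26 at 1 h, and 9.53, 9.46, 9.58 and 9.57 at 2 h. Every one of these libraries was below every WT library of its time, as in 14.7%, 18.1% and 18.9% of all tested genes. The difference was -0.91 ± 0.09, -0.89 ± 0.09 and -0.57 ± 0.10 (limma, adjusted p = 6.24e-15, 9.72e-15 and 5.22e-07).

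Ier3 in these BMDMs was 10.71, 10.79, 10.62 and 10.57 at 0.5 h, 9.60, 9.70, 9.60 and 9.39 at 1 h, and 9.11, 9.04, 8.90 and 9.07 at 2 h. At 0.5 h it overlapped WT, and at 1 and 2 h all its libraries were below WT. The difference was 0.10 ± 0.11 at 0.5 h, which was not called (95% interval -0.11 to 0.31), -0.70 ± 0.11 at 1 h and -0.49 ± 0.12 at 2 h (limma, adjusted p = 2.28e-08 and 0.000177).

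Ier5 was 13.15, 13.14, 13.17 and 12.95 at 0.5 h, 12.75, 12.83, 12.86 and 12.60 at 1 h, and 11.78, 11.75, 11.88 and 11.75 at 2 h in Elk1-/-Elk4-/- BMDMs. It overlapped the upper WT libraries at 0.5 h and was below all WT libraries later. The difference was 0.16 ± 0.06 at 0.5 h (limma, adjusted p = 0.0113), -0.32 ± 0.06 at 1 h and -0.34 ± 0.06 at 2 h (adjusted p = 8.66e-07 and 1.15e-06). The higher Ier5 at 0.5 h was not called without Elk1-/-Elk4-/- replicate 3, WT replicate 5 or WT replicate 6, with 0.13 to 0.21 over all replicates left out, and was 0.28 with library weights. Of the members, 1 was lower at 0.5 h and 3 at 1 and 2 h, where 22.9%, 26.9% and 23.8% of tested genes were lower. At 0.5 h the Ier2 difference was set apart from that of Ier3 by -1.01 ± 0.13 and from that of Ier5 by -1.07 ± 0.07 (adjusted p = 1.78e-11 and 9.25e-27 over the 48 tests).

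**Figure D3:**
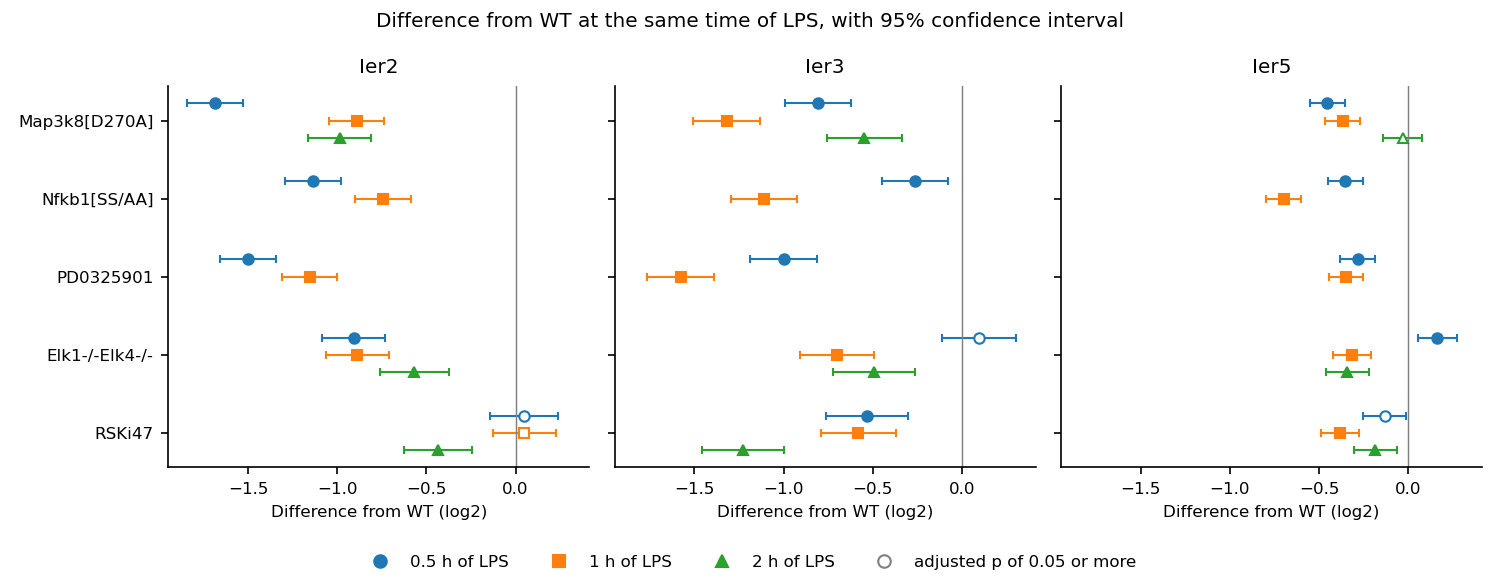
Difference from WT in deposited log2 units (horizontal axis) of Ier2, Ier3 and Ier5 in each genotype or inhibitor arm (vertical axis), with symbols for 0.5, 1 and 2 h of LPS, bars for the 95% confidence interval and open symbols for differences that were not called. At 0.5 h the difference of Ier2 runs from -1.68 in Map3k8[D270A] to 0.05 with RSKi47.

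Because each arm had libraries of its own without LPS, the LPS response within an arm could be set against that of WT, which takes out any constant shift between experiments. For PD0325901 and RSKi47 the libraries without LPS were those of 10 min of inhibitor. They lack the further time that the LPS libraries had, so a change over that time stays in the response. At 0.5 h Ier2 rose by 3.33 in WT, 3.64 with RSKi47, 2.43 in Nfkb1[SS/AA], 2.40 in Elk1-/-Elk4-/-, 2.13 with PD0325901 and 1.72 in Map3k8[D270A]. Each of these rises was called, and in no arm did the 0.5 h libraries overlap those without LPS, where all 0.5 h libraries were above those without LPS in 5.66% of tested genes in WT, 3.65% in Map3k8[D270A], 6.52% in Elk1-/-Elk4-/-, 6.13% in Nfkb1[SS/AA], 12.7% with PD0325901 and 11.4% with RSKi47. Ier3 rose by 2.88 in WT, 3.23 in Elk1-/-Elk4-/-, 2.65 in Nfkb1[SS/AA], 2.58 with RSKi47, 2.27 with PD0325901 and 2.20 in Map3k8[D270A]. Ier5 rose by 0.88 in WT, 0.98 in Elk1-/-Elk4-/-, 0.96 with RSKi47, 0.76 in Nfkb1[SS/AA], 0.71 with PD0325901 and 0.55 in Map3k8[D270A]. All 3 genes thus rose at 0.5 h in every arm. Map3k8[D270A] had the smallest value for each when PD0325901 was measured from 10 min of inhibitor. For Ier5 the PD0325901 mean was 11.95 after 10 min and 12.19 after 40 min without LPS, and 12.65 with LPS for 0.5 h. The place of PD0325901 in the order of Ier5 thus depends on the baseline, and no test was run from 40 min. The share of all tested genes called at 0.5 h was 5.61% in Map3k8[D270A], 5.37% in Elk1-/-Elk4-/-, 14.6% in Nfkb1[SS/AA], 8.63% with PD0325901 and 5.1% with RSKi47.

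At 2 h Ier2 was lower than without LPS in Map3k8[D270A] BMDMs, by -0.49 ± 0.08 (limma, adjusted p = 4.03e-08), against a difference of 0.43 in WT. In Elk1-/-Elk4-/- BMDMs the 2 h difference of Ier2 was -0.15 (adjusted p = 0.15, and called with quantile normalization at -0.24 and library weights at -0.17), and with RSKi47 it was 0.26 (adjusted p = 0.0145), which was not called without RSKi47 replicate 2 or 4, at 0.24 and 0.08, with library weights (0.13), with quantile normalization (0.19) or with only the compared arms. Without RSKi47 replicate 1 it was 0.41. Ier5 at 2 h differed from its unstimulated level by -0.33 ± 0.06 in Elk1-/-Elk4-/- BMDMs (adjusted p = 1.16e-06, and -0.68 with quantile normalization), and 0.16 ± 0.05 above it in Map3k8[D270A] (adjusted p = 0.00218), where the libraries overlapped and quantile normalization turned the difference to -0.17 and library weights left it at 0.07, not called. Ier3 was above its level without LPS at 2 h in all 4 arms measured, by 1.83 in WT, 1.58 in Elk1-/-Elk4-/-, 1.41 in Map3k8[D270A] and 0.83 with RSKi47. At 2 h the background share called was 70% in Map3k8[D270A], 67.9% in Elk1-/-Elk4-/- and 62.2% with RSKi47.

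The test of the difference between responses was run for 39 combinations of gene, arm and time, and 22 passed the threshold. In Map3k8[D270A] the response of Ier2 differed by -1.62 ± 0.11, -0.83 ± 0.11 and -0.92 ± 0.12 at 0.5, 1 and 2 h (limma, adjusted p = 2.75e-22, 1.8e-08 and 1.05e-09). The response of Ier3 differed by -0.68, -1.19 and -0.42 (adjusted p = 0.00139, 2.23e-11 and 0.0257). That of Ier5 differed by -0.33 and -0.25 at 0.5 and 1 h (adjusted p = 0.00447 and 0.032) and by 0.09 at 2 h (adjusted p = 0.469). At these times 0.175%, 2.4% and 17.2% of all tested genes had a response that differed from WT, so at 0.5 h the 3 members were among 21 such genes. With only the compared arms in the fit, the Ier3 call at 0.5 and 2 h and both Ier5 calls were lost, the latter also with quantile normalization (-0.27 and -0.16). The Ier3 call at 2 h was also lost with library weights (-0.083, adjusted p = 0.606) and without Map3k8[D270A] replicate 5 or 6 or WT replicate 6 or 8 (-0.34 to -0.37), and the Ier5 call at 1 h without Map3k8[D270A] replicate 3, 4 or 6 or WT replicate 4, 5 or 6 (-0.22 to -0.25).

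In Elk1-/-Elk4-/- BMDMs the response of Ier2 was smaller at all 3 times, by -0.93 ± 0.12, -0.91 ± 0.12 and -0.59 ± 0.13 (limma, adjusted p = 1.9e-07, 9.66e-08 and 0.000384), and that of Ier5 at 1 and 2 h, by -0.37 and -0.40 (adjusted p = 0.00132 and 0.000111). For Ier3 the response differed by 0.34, -0.46 and -0.25 and was not called (adjusted p = 0.999, 0.122 and 0.291). With library weights the Ier3 response was called at 0.5 h (0.47, adjusted p = 0.00937) and 1 h (-0.41, adjusted p = 0.0223), and with the replicate block at 1 h (-0.46, adjusted p = 0.0168). In Nfkb1[SS/AA] BMDMs Ier2 had a smaller response at 0.5 and 1 h, by -0.91 ± 0.11 and -0.52 ± 0.11 (adjusted p = 5.03e-09 and 0.000538). At 1 h the responses of Ier3 and Ier5 were smaller too, by -1.08 ± 0.13 and -0.46 ± 0.07 (adjusted p = 3.22e-10 and 2.21e-07). At 0.5 h the responses of Ier3 and Ier5 in this arm were not called as different from WT.

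With PD0325901 the response of Ier2 was smaller by -1.21 ± 0.12 and -0.86 ± 0.12, and that of Ier3 by -0.62 ± 0.15 and -1.19 ± 0.15 (limma, adjusted p = 1.48e-12, 1.92e-07, 0.0109 and 1.73e-09). The Ier3 call at 0.5 h was lost without PD0325901 replicate 1 or 2, at -0.61 and -0.60. That of Ier5 differed by -0.17 and -0.24 and was not called (adjusted p = 0.33 and 0.0689). Without LPS, Ier5 had means of 11.95, 12.19 and 12.19 after 10, 40 and 70 min of PD0325901, and only the 10 min libraries served as the baseline. With the DMSO libraries in place of unstimulated WT, the Ier5 response with PD0325901 was smaller at both times, by -0.29 and -0.35 (adjusted p = 0.0245 and 0.00276). At 1 h it was also called with library weights (-0.30), with the replicate block (-0.26) and without WT replicate 9 (-0.26). With RSKi47 1 of the 9 tests was called, for Ier3 at 2 h, where the response decreased by 1.00 ± 0.16 (adjusted p = 3.09e-07). With library weights 3 more were called, at 0.41 and 0.30 for Ier2 at 0.5 and 1 h and -0.22 for Ier5 at 1 h. With the replicate number as a block, Ier3 with RSKi47 at 1 h was also called, at -0.35 (adjusted p = 0.0473, against 0.183 without the block). The shares of all tested genes called were 0.109%, 1.53% and 17.8% for Elk1-/-Elk4-/-, 0.309% and 6.07% for Nfkb1[SS/AA], 1.65% and 3.64% for PD0325901, and 0.0251%, 5.54% and 21% for RSKi47.

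**Figure D4:**
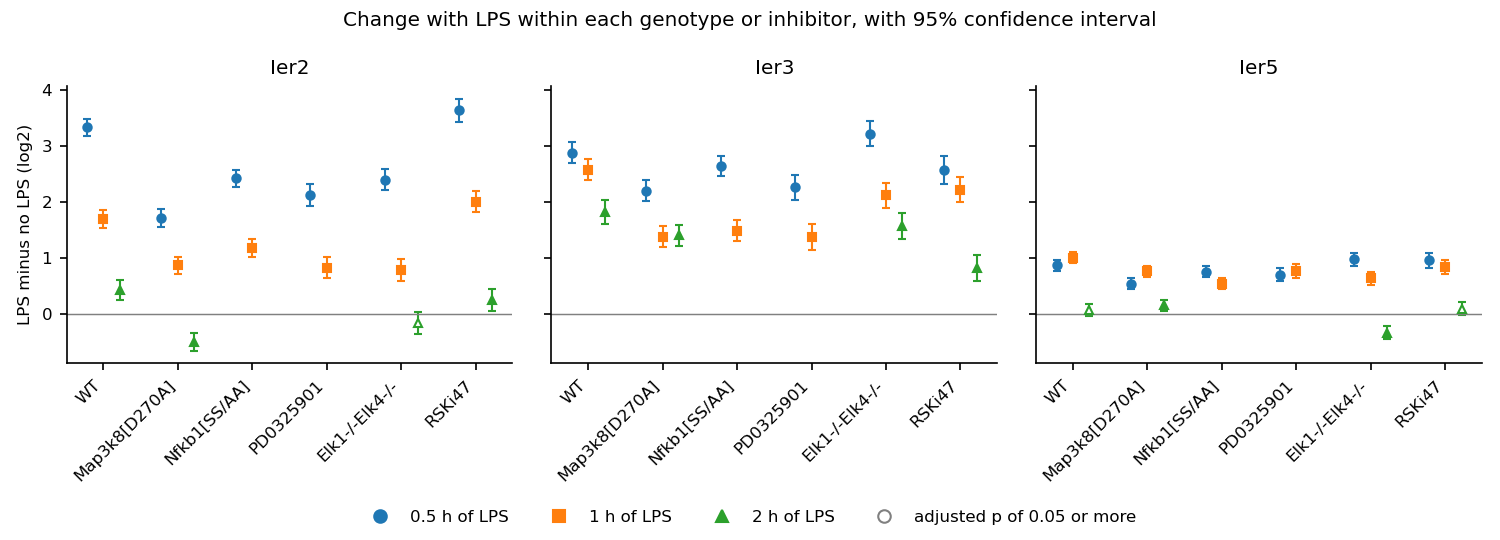
Change from the same arm without LPS in deposited log2 units (vertical axis) of Ier2, Ier3 and Ier5 for WT and the 5 other arms (horizontal axis), with symbols for 0.5, 1 and 2 h of LPS, bars for the 95% confidence interval and open symbols for changes that were not called. Ier2 in Map3k8[D270A] ends at -0.49 at 2 h, below 0, while Ier3 stays above 0 in every arm.

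Arms were also compared with each other at the same LPS time, which leaves the WT libraries out. Against Map3k8[D270A], Elk1-/-Elk4-/- BMDMs had higher Ier2 at 0.5 h by 0.78 ± 0.09, a difference of 0.00 ± 0.09 at 1 h (95% interval -0.17 to 0.18), and higher Ier2 at 2 h by 0.42 ± 0.09 (limma, adjusted p = 3.36e-12, 0.972 and 3.5e-05). Ier3 was higher by 0.90 ± 0.11 and 0.62 ± 0.11 at 0.5 and 1 h (adjusted p = 8.83e-12 and 5.26e-07), and by 2 h the difference was 0.05 (adjusted p = 0.693). Ier5 was higher by 0.62 ± 0.06 at 0.5 h, differed by 0.05 at 1 h and was lower at 2 h by -0.31 ± 0.06 (adjusted p = 8.29e-17, 0.432 and 1.37e-06). The background share called was 51.3%, 53.3% and 51.2% at the 3 times.

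PD0325901 was set against Map3k8[D270A] in the same way. At 0.5 h PD0325901 minus Map3k8[D270A] was 0.18 for Ier2 (95% interval 0.03 to 0.34, limma adjusted p = 0.0634), -0.19 for Ier3 (adjusted p = 0.108) and 0.17 ± 0.05 for Ier5 (adjusted p = 0.00509). At 1 h it was -0.26 ± 0.08 for Ier2 and -0.26 ± 0.09 for Ier3 (adjusted p = 0.00488 and 0.0219), with overlapping libraries, and 0.02 for Ier5 (95% interval -0.08 to 0.12). The Ier3 call at 1 h was lost without Map3k8[D270A] replicate 1 (-0.23), and at 0.5 h Ier3 was called without Map3k8[D270A] replicate 6 (-0.24) and with library weights (-0.21). The Ier2 difference at 0.5 h was called with library weights and with only the compared arms (0.18 each). Here 31.2% and 40.7% of all tested genes were called.

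Nfkb1[SS/AA] was above Map3k8[D270A] at 0.5 h by 0.55 ± 0.08 for Ier2 and 0.54 ± 0.09 for Ier3 (limma, adjusted p = 1.19e-08 and 1.37e-06), and the Ier5 difference of 0.10 was not called (adjusted p = 0.0939, and called without Nfkb1[SS/AA] replicate 6 at 0.13), with 20.5% of all tested genes called higher. At 1 h the differences were 0.15 and 0.21 for Ier2 and Ier3 (adjusted p = 0.119 and 0.0594, both called without Nfkb1[SS/AA] replicate 3 at 0.19 and 0.25). Ier3 was also called without Nfkb1[SS/AA] replicate 4 (0.24) or Map3k8[D270A] replicate 1 (0.23) and with the block on the number (0.21, adjusted p = 0.0298). Ier5 was lower at 1 h in Nfkb1[SS/AA] by -0.33 ± 0.05 (adjusted p = 2.01e-08), with 24.6% of genes called lower. RSKi47 minus PD0325901 was 1.55 ± 0.10 and 1.20 ± 0.09 for Ier2 and 0.47 ± 0.12 and 1.00 ± 0.11 for Ier3 at 0.5 and 1 h (adjusted p = 1.13e-25, 4.9e-22, 0.000435 and 7.75e-14). For Ier5 it was 0.15 ± 0.06 and -0.03 ± 0.06 (adjusted p = 0.0299 and 0.633), and the 0.5 h call was lost without PD0325901 replicate 2, 3 or 6 or RSKi47 replicate 2 or 3 (0.12 to 0.15) and with quantile normalization (0.10), with 49.5% and 53.9% of genes called. The inhibitors differ in the kinase they block, in dose and in experiment, which cannot be told apart here.

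The change between LPS times was added after the values had been seen. Between 0.5 and 1 h Ier5 rose by 0.14 in WT (limma, adjusted p = 0.0195, a direction that quantile normalization turned to -0.05) and by 0.22 in Map3k8[D270A] (adjusted p = 0.000107, and 0.07, not called, with quantile normalization). The Ier5 call in WT was lost without WT replicate 4, 5 or 6 (0.12, 0.09 and 0.09, adjusted p = 0.0756, 0.187 and 0.201) and with only the compared arms (adjusted p = 0.103). The Ier5 mean went from 12.77 to 13.08 in WT replicates 4 to 6 and from 13.11 to 13.06 in replicates 7 to 9. Ier5 fell by 0.34 in Elk1-/-Elk4-/- and by 0.21 in Nfkb1[SS/AA] (adjusted p = 1.5e-06 and 0.000195), and this course differed from that of WT by -0.48 ± 0.08 and -0.35 ± 0.07 (adjusted p = 9.37e-06 and 0.000182). The course of Ier3 over the same interval was steeper downwards than in WT in 4 of 5 arms, by -0.51 in Map3k8[D270A], -0.80 in Elk1-/-Elk4-/-, -0.85 in Nfkb1[SS/AA] and -0.58 with PD0325901 (adjusted p = 0.0219, 0.000147, 9.01e-07 and 0.00638), and differed by -0.05 with RSKi47 (adjusted p = 0.954). In WT itself the Ier3 mean went from 10.55 to 10.47 in replicates 4 to 6 and from 10.60 to 10.08 in replicates 7 to 9. The course tests use both sets together. Ier2 fell less steeply than in WT in Map3k8[D270A] and Nfkb1[SS/AA], by 0.79 and 0.39 (adjusted p = 1.58e-07 and 0.0196). The course calls of Ier3 in Map3k8[D270A] and Ier2 in Nfkb1[SS/AA] were lost with only the compared arms. The first was also lost without Map3k8[D270A] replicate 4 or WT replicate 4, 5 or 6 (-0.49 to -0.46), and the second without Nfkb1[SS/AA] replicate 2 or 6 or WT replicate 4, 7 or 9 (0.31 to 0.38) and with library weights (0.26). From 1 to 2 h Ier3 differed by 0.02 in Map3k8[D270A] (adjusted p = 0.857) against -0.75 in WT. The mean in Map3k8[D270A] went from 9.03 to 9.26 in replicates 1 to 3 and from 8.87 to 8.69 in replicates 4 to 6. Over the 7 alternatives the Map3k8[D270A] difference ran from 0.02 to 0.18, and 1 of them called it (limma, adjusted p = 0.0393). Between 0.5 and 1 h, 37.3% of all tested genes were called in Map3k8[D270A], 28.6% in Elk1-/-Elk4-/- and 42.6% in Nfkb1[SS/AA], and between 1 and 2 h 62.4% in Map3k8[D270A] and 65.9% in WT. The test of the course against WT, which uses the same WT libraries for each arm, called 1.53% of genes for Map3k8[D270A], 2.21% for Elk1-/-Elk4-/-, 4.33% for Nfkb1[SS/AA], 1.14% for PD0325901 and 3.64% for RSKi47.

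**Figure D5:**
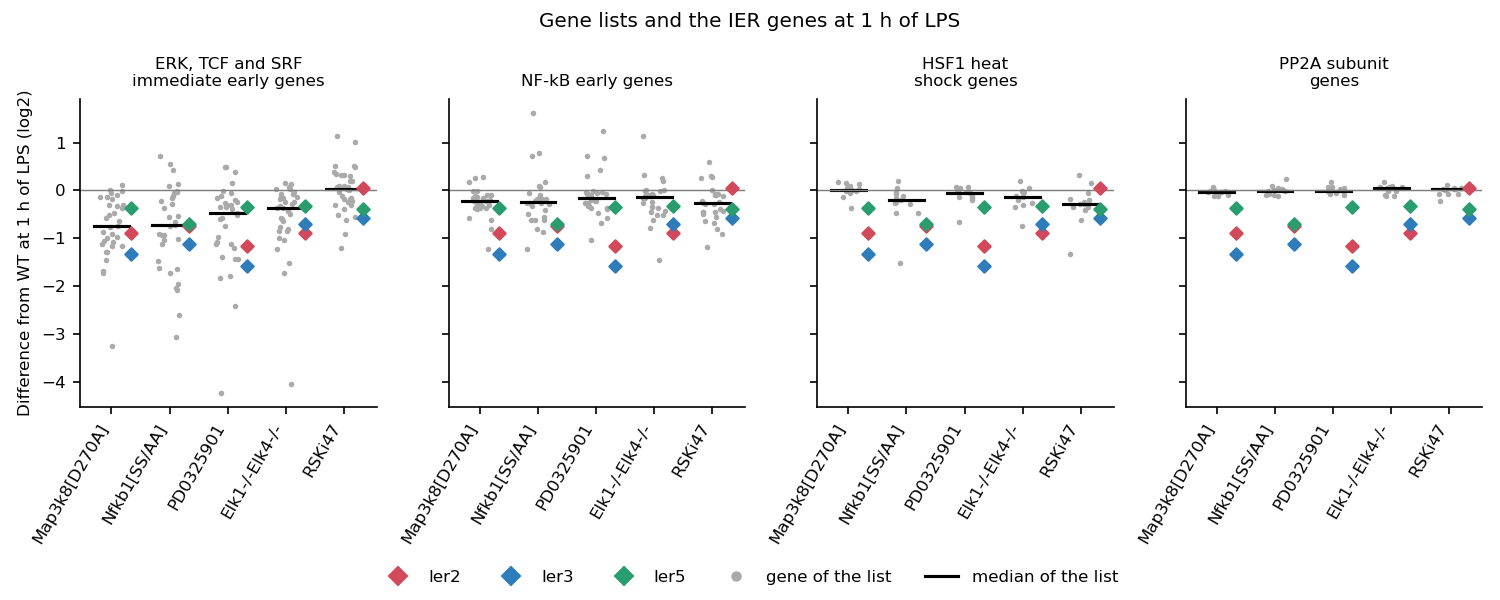
Difference from WT at 1 h of LPS in deposited log2 units (vertical axis) for every tested gene of 4 lists (grey points, with a black line at the list median) in each arm, with Ier2, Ier3 and Ier5 as diamonds. In Map3k8[D270A] the median of the ERK, TCF and SRF immediate early genes is -0.74, and that of the PP2A subunit genes is -0.03.

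Other genes of the same pathways were described by count and median, for lists chosen with earlier results of these data known. Of 34 immediate early genes known as targets of ERK, TCF or SRF, 33 were tested. In WT BMDMs 28 were higher and 0 lower at 0.5 h of LPS, with a median difference of 1.55, while at 1 h 29 of them were higher, 1 was lower and the median was 1.77. In Map3k8[D270A] against WT, 20 were lower and none higher at 0.5 h (median -0.44), and 25 were lower and none higher at 1 h (median -0.74). At 2 h the counts were 21 and 2, with a median of -0.43, while the median over all genes tested was within 0.02 of 0 in these comparisons. Egr1, a zinc finger transcription factor, and Errfi1, a feedback inhibitor of the EGF receptor, had the largest differences of that list at 1 h, at -3.24 ± 0.14 and -1.73 ± 0.14 (limma, adjusted p = 3.8e-36 and 5.79e-19). In the other arms the list was mixed at 0.5 h, with 11 lower and 8 higher in Elk1-/-Elk4-/- (median -0.05) and 12 and 7 in Nfkb1[SS/AA] (median -0.07). With PD0325901 19 were lower and 2 higher (median -0.26), and with RSKi47 12 and 5 (median -0.07). Of all tested genes, 22.9%, 15.6%, 15% and 24.5% were lower in these arms at 0.5 h. At 1 h, 21 of the list were lower and 1 higher in Elk1-/-Elk4-/-, 22 and 3 in Nfkb1[SS/AA], 23 and 3 with PD0325901, and 9 lower and 7 higher with RSKi47. The shares of all tested genes that were lower and higher at 1 h were 4.8% and 5.87% in Map3k8[D270A], 26.9% and 28.3% in Elk1-/-Elk4-/-, 21.9% and 20.5% in Nfkb1[SS/AA], 19.3% and 16.4% with PD0325901 and 26.3% and 26.5% with RSKi47, so the RSKi47 counts of this list are near the background. Egr1 was lower by -4.04 in Elk1-/-Elk4-/-, -3.06 in Nfkb1[SS/AA] and -4.22 with PD0325901 and higher by 1.01 with RSKi47, whereas Errfi1 was lower with RSKi47 as well, at -1.20.

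Of 28 early NF-kB genes, all tested, 23 were higher at 0.5 h and 28 at 1 h in WT BMDMs, with medians of 0.83 and 2.85. In Map3k8[D270A] at 1 h 15 were lower and 1 higher, with a median of -0.23, and the medians were -0.14 in Elk1-/-Elk4-/-, -0.24 in Nfkb1[SS/AA], -0.16 with PD0325901 and -0.26 with RSKi47. At 0.5 h the sign was not the same in all arms. The medians were then -0.24 in Map3k8[D270A], 0.19 in Elk1-/-Elk4-/-, 0.17 in Nfkb1[SS/AA], -0.18 with PD0325901 and 0.09 with RSKi47. The members named from this list, by their difference in Map3k8[D270A] at 1 h, were Il1b, the cytokine interleukin 1 beta, at -1.22 ± 0.14, Cxcl2, a neutrophil chemokine, at -0.80 ± 0.08, and the transcription factor Irf1, the only one higher, at 0.28 ± 0.09 (limma, adjusted p = 4.87e-12, 4.51e-13 and 0.0351). The Irf1 call was lost without the filter on low values, where 0 of the list were called higher. Il1b, unlike Ier2, was lower with RSKi47 at 1 h, at -1.18.

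The heat shock genes that HSF1 controls and the PP2A subunit genes stand for the known partners of IER5. Of 13 heat shock genes tested (14 listed), 2 were higher and 2 lower in Map3k8[D270A] at 1 h, with a median of 0.01. The co-chaperone gene Dnajb1 was lower by -0.36 ± 0.04 and the chaperonin gene Hspd1 higher by 0.15 ± 0.05 (limma, adjusted p = 5.75e-14 and 0.0228). At 1 h, 9 of the 13 were lower in Nfkb1[SS/AA], 9 with RSKi47, 7 in Elk1-/-Elk4-/- and 4 with PD0325901, with medians of -0.21, -0.28, -0.13 and -0.05, beside the shares of all tested genes given for these comparisons above. Much of this was there without LPS, with 8 lower in Nfkb1[SS/AA], 9 with RSKi47 and 6 in Elk1-/-Elk4-/- (medians -0.17, -0.27 and -0.15). Of all tested genes, 32%, 53% and 53.6% were called in either direction there. Of 11 PP2A subunit genes tested (12 listed), 0 were higher and 2 lower in Map3k8[D270A] at 1 h, with a median of -0.03. They were Ppp2r2a, a regulatory subunit, at -0.12 ± 0.03, and Ppp2ca, a catalytic subunit, at -0.11 ± 0.03 (adjusted p = 0.01 and 0.0135).

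Ier5l, the relative of Ier2 and Ier5, moved the other way with LPS. In WT BMDMs it fell by 0.46, 1.57 and 1.70 at 0.5, 1 and 2 h. It differed from WT in Map3k8[D270A] by 0.02 and -0.09 at 0.5 and 1 h and was lower at 2 h by -0.37 (limma, adjusted p = 0.00305). In Elk1-/-Elk4-/- BMDMs Ier5l was lower at every time, by -0.92 unstimulated and -0.84, -0.49 and -0.43 at 0.5, 1 and 2 h.

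The genes most like each member were taken as those with the highest Pearson correlation of group means over the 25 groups. The groups share the WT background, the LPS times and 1 normalisation, so the values are a description. For Ier2 they were Btg2 (0.961), an anti-proliferative immediate early gene, the nuclear receptor gene Nr4a1 (0.885), Zfp36 (0.883), Plk2 (0.863) and Krr1 (0.861). For Ier3 they were the MAP kinase phosphatase gene Dusp1 (0.955), Zfp36 (0.953), which encodes an mRNA-destabilising protein, Junb (0.920), Ppp1r15a (0.901) and Nfkbia (0.899), the gene of the NF-kB inhibitor IkB alpha. For Ier5 they were Nr4a1 (0.910), Nuak2 (0.901), Dusp5 (0.884), Slc25a25 (0.882) and Egr2 (0.879). Among the members themselves, the correlation was 0.848 for Ier2 and Ier3, 0.838 for Ier2 and Ier5 and 0.804 for Ier3 and Ier5, each below that of the 5 most similar genes of either member.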

How the data were processed

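RNA of mouse BMDMs was sequenced in 25 groups of libraries. Per the labels, the authors aligned reads with STAR 2.5.1b to mm10, quantified genes with RSEM 1.2.29 and normalised with DESeq2 1.10.1. The deposited table holds normalised values of 18098 genes on a log2 scale, from -2.40 to 19.81, and no library was identical to another. Raw counts were not used here, so the sequencing depth behind each value is unknown and no counting interval is given. The labels and methods do not name the transformation behind the log2 values. A variance-stabilising transformation would draw differences together, most for low values. One Fosb value above the limit of 25 was set to missing.

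Groups followed the labels. A gene was tested if its linear value reached 10 in 3 or more libraries, which 11971 did. Group means were fitted over all libraries with limma 3.58.1 in R 4.3.3 (94 residual degrees of freedom), for 74 contrasts, 13 of them added after the values were seen. P-values were adjusted by Benjamini-Hochberg over all genes tested in each contrast, and a call is an adjusted p under 0.05. The procedure was tested on simulated data. Differences between members within a library were tested in the same model and adjusted over 48 tests. The labels do not say that libraries of a group came from separate animals or cultures, so p-values measure the spread between these samples, which may be technical.

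Named genes were the 3 members in every group and contrast, Ier5l, up to 3 genes per pathway list chosen by the size of their difference at 1 h in Map3k8[D270A] among those called (the 2 largest and the largest in the opposite direction), and the 5 genes most like each member. The members and lists were chosen with earlier results of these data known.

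Same-numbered WT libraries deviated together across times (correlation of the deviations from the group means 0.16 to 0.79), as did those of Nfkb1[SS/AA], of Map3k8[D270A] up to 1 h (0.27 to 0.76) and of RSKi47 at 10 min, 1 h and 2 h (0.27 to 0.70), so the numbers pair these libraries. Most other comparisons of times within an arm had a pair under 0.1. Between WT and Map3k8[D270A] the same numbers did not (-0.45 to -0.06), and the labels name no shared animal or day. Alternatives were no filter, limma-trend, library weights, median centring, quantile normalization, only the compared arms, a replicate block, each replicate left out, the sets of replicate numbers, DMSO in place of unstimulated WT, PD0325901 replicates averaged in pairs, and a single distant library left out. Gene positions were read from GENCODE vM21 and promoters from RefSeq.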

Additional observations from a re-analysis of the deposited data

Results flagged for a closer look

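In groups of 4 to 10 libraries, 60 sets of values were examined for a library far from the others, and 3 had one, where chance alone gives about 1 in 20. Ier2 in unstimulated Map3k8[D270A] replicate 2 was 9.71, with a gap to the nearest library of 0.663 of the group's range. Ier2 in Elk1-/-Elk4-/- replicate 4 at 1 h was 10.26 (0.938 of the range), and Ier5 in Elk1-/-Elk4-/- replicate 4 at 0.5 h was 12.95 (0.851 of the range). Replicate 4 was the lowest Elk1-/-Elk4-/- library in both of those groups.

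The LPS response differed from that of WT, by a limma interaction test with adjusted p under 0.05, in 22 of 39 cases, and each difference is negative, meaning a smaller rise or a larger fall than in WT. In Map3k8[D270A] it was -1.62, -0.83 and -0.92 for Ier2 at 0.5, 1 and 2 h, -0.68, -1.19 and -0.42 for Ier3, and -0.33 and -0.25 for Ier5 at 0.5 and 1 h. In Elk1-/-Elk4-/- it was -0.93, -0.91 and -0.59 for Ier2 at 0.5, 1 and 2 h, and -0.37 and -0.40 for Ier5 at 1 and 2 h. In Nfkb1[SS/AA] it was -0.91 and -0.52 for Ier2 at 0.5 and 1 h, -1.08 for Ier3 at 1 h and -0.46 for Ier5 at 1 h. With PD0325901 it was -1.21 and -0.86 for Ier2 and -0.62 and -1.19 for Ier3 at 0.5 and 1 h. With RSKi47 the response of Ier3 decreased by 1.00 at 2 h. The 22 cases share the WT libraries and are not independent of each other.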

How the results depend on the processing

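Of 48 differences that answer a comparison, 42 kept their direction and their side of the threshold under all alternatives run. With quantile normalization Ier5 in WT at 2 h reversed to -0.33, Ier5 with RSKi47 was called at 0.5 h (-0.19) and not at 2 h (-0.12), and 3 further Ier5 values reversed: WT 1 h against 0.5 h (-0.048), Map3k8[D270A] 2 h against unstimulated (-0.17) and RSKi47 2 h against 10 min (-0.17). With library weights Ier5 was called in WT at 2 h (0.10) and in Map3k8[D270A] at 2 h (-0.12), and the latter was also called within WT replicates 4 to 6 and mutant replicates 1 to 3 (-0.13). With only the compared arms Ier3 in Nfkb1[SS/AA] at 0.5 h was not called (-0.26). For these changes the cause was not tested. With replicates left out in turn, Ier3 in Nfkb1[SS/AA] at 0.5 h ranged from -0.30 to -0.22, Ier5 in Elk1-/-Elk4-/- at 0.5 h from 0.13 to 0.21, and Ier5 with RSKi47 at 0.5 h from -0.17 to -0.085, which was called without RSKi47 replicate 3 or WT replicate 4, 5 or 6. The fits with the replicate block changed none of the 48 calls. Within arms the paired fit added 4 calls: the LPS response at 1 h of Ier3 in Elk1-/-Elk4-/- (-0.46) and with RSKi47 (-0.35), of Ier5 with PD0325901 (-0.26), and the 0.5 to 1 h course of Ier5 with RSKi47 (-0.23). The block on the number in the titles added 5 calls between arms, where same-numbered libraries share only a number. The scale of the deposited values, the unknown depth and the use of 1 set of WT libraries for all arms limit every difference here.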
